A study of Mus musculus with 6 samples.

Results

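The 10 genes described here are members of the TNF receptor superfamily of the mouse: Tnfrsf1a, Tnfrsf1b, Tnfrsf4, Tnfrsf9, Tnfrsf11a, Tnfrsf11b, Tnfrsf12a, Tnfrsf21, Tnfrsf22 and Tnfrsf23. They were taken by name, as the probe sets whose single gene symbol in the platform's probe annotation is one of them, which gave 19 probe sets for the 10 genes out of 18193 genes named on the array. A further probe set names both Tnfrsf22 and Tnfrsf23 and was not used. Transcript levels were measured in primary fibroblasts of the dermis, which build the skin's matrix, explanted from B6 mice aged 0 to 2 days with the sexes mixed, and studied at passage 4. In 3 cultures, called treated here, the medium held 5 µM 5-aza-2'-deoxycytidine during 96 hours, renewed every 24 hours, and drug-free medium followed for 24 hours. The other 3 cultures, called controls, were untreated. Each culture was hybridised to 1 Affymetrix array, the explants were derived separately for each biological replicate, and the sources used here do not say how many animals went into an explant.

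The drug, decitabine, takes the place of deoxycytidine in newly made DNA and binds DNA methyltransferases covalently, and dividing cells then lose cytosine methylation at CpG sites. Receptors of the TNF superfamily bind trimeric ligands of the TNF family through cysteine-rich repeats outside the cell. Those with a death domain inside the cell recruit adaptors such as Tradd and Fadd and can start cell death or NF-kappaB signalling. Others lack that domain and bind TRAF adaptor proteins directly, which leads to NF-kappaB and kinase signalling, and decoy receptors bind the ligand without passing on such a signal. In skin fibroblasts the family is known for responses to TNF itself during inflammation and wound repair.

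Of the 10 members, 5 rose in treated cultures, 0 fell and 5 did not pass the test. The risers were Tnfrsf12a, Tnfrsf21, Tnfrsf22, Tnfrsf23 and Tnfrsf11b, and 4 of them rose at least 2-fold. By role, 1 of 2 death domain receptors rose, 1 of 5 receptors that bind TRAF proteins without a death domain, and 3 of 3 decoy receptors. Signals are MAS5 signals scaled to a common level between arrays, and a log2 change is the treated minus the control mean of log2(signal + 9.66). A gene passed the test, a limma fit across all tested probe sets with n = 3 arrays per group, at an adjusted p under 0.05. A gene was read from its brightest tested probe set. All 10 members had a probe set above the array median on at least 3 of the 6 arrays, the condition for being tested, and 15 of their 19 probe sets met it. Of all 12194 genes tested, 41.1% passed in either direction, 19.5% passed as higher and 21.6% as lower. Those passing with at least a 2-fold rise were 5.39% of the genes. The median log2 change of the members was 0.91, against -0.0032 over all tested genes. The groups did not overlap in 5 of the 10 members, and in 52.5% of all tested genes. The members were chosen with earlier results of these arrays known, so these counts describe them and test nothing.

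**Figure D1:**
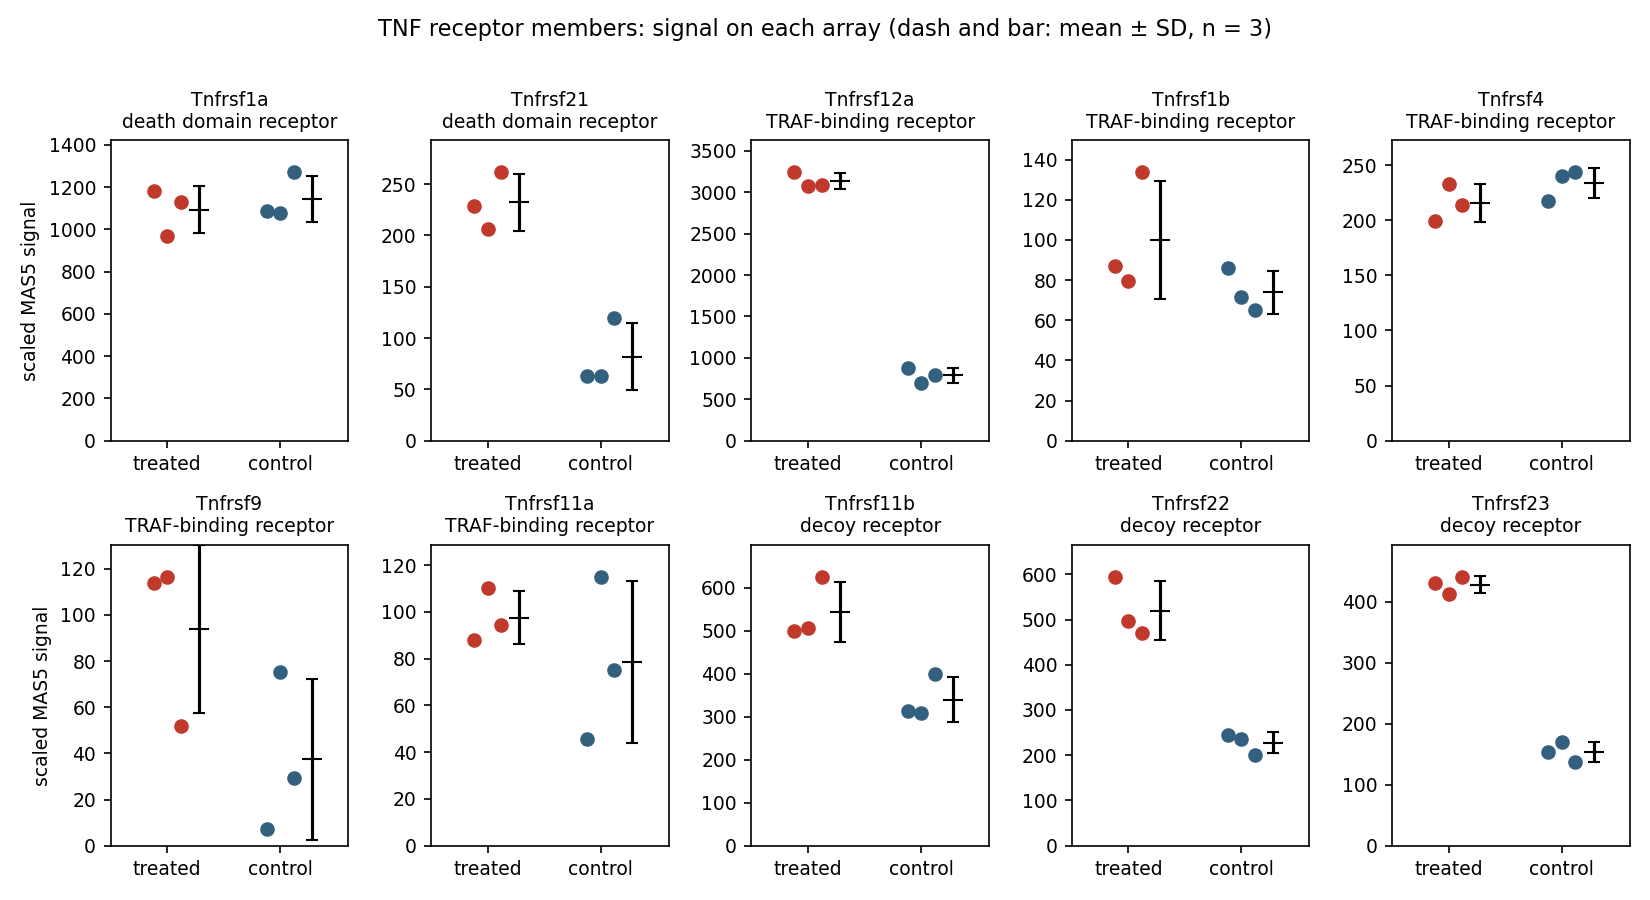
Scaled MAS5 signal (y axis, linear from 0) of the representing probe set of each of the 10 members, with 1 point per array for the 3 treated and the 3 control cultures and the mean ± SD beside them. Treated arrays lie above all control arrays for Tnfrsf21, Tnfrsf12a, Tnfrsf11b, Tnfrsf22 and Tnfrsf23, while the groups overlap for the other 5.

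The cultures carried the defining transcripts of fibroblasts. All 8 fibroblast markers, among them the collagens Col1a1, Col1a2 and Col3a1 and the intermediate filament protein Vim, lay above the array median on all 6 arrays. Their level moved with the treatment: 7 of the 8 fell and 0 rose, and their summed signal was 23410 to 28300 on treated arrays, against 50520 to 58270 on control arrays. Vim, which did not pass (log2 change 0.13), contributed 10610 to 12290 to that sum on treated arrays and 9598 to 10700 on control arrays. Single markers fell further than the sum: the log2 change was -3.84 for Lum and -2.45 for Dcn, both small proteoglycans, and -3.21 for the growth factor receptor Pdgfra. Thy1 (-0.39) lost its call with the signals left unscaled (adjusted p = 0.0748) and without the intensity trend (adjusted p = 0.0537). A dimmer probe set of Col1a1 did not pass (-0.44, adjusted p = 0.0765). Fewer cells of a type and less RNA per cell cannot be told apart in such cultures. Several members are best known from lymphocytes and osteoclasts, so markers of those cells were read too. Of 9 leukocyte markers on the array, 3 were bright enough to be tested and 1 rose, Cd8a (log2 change 0.52), which did not pass with the signals left unscaled (adjusted p = 0.257). The macrophage receptor Csf1r did not pass at its brightest probe set (0.31, adjusted p = 0.0974). That probe set did pass without treated 1 (adjusted p = 0.0367) and with the replicate number as a block (adjusted p = 0.029). The dimmer probe sets of Csf1r differed: one was called higher (0.56, adjusted p = 0.0431) and another did not pass (0.07, adjusted p = 0.823). The summed signal of the leukocyte markers was 831.8 to 998 on treated arrays, against 723.6 to 762 on control arrays. The pan-leukocyte gene Ptprc and the T cell receptor chains Cd3e and Cd3g stayed below the condition for testing. Of 6 osteoclast markers 2 were tested, Mmp9 higher (1.42) and Ctsk lower (-1.05), both genes that fibroblasts can also express, and the summed signal was 1164 to 1672 on treated arrays and 2191 to 2431 on control arrays. Acp5 and Calcr, which define osteoclasts more closely, were too dim to be tested. Of 4 osteoblast markers 2 were tested, and Alpl was lower (-0.79), with sums of 172.8 to 328 on treated and 198.5 to 245 on control arrays. Keratinocyte markers summed to 188 to 228.5 on treated and 135.9 to 227 on control arrays, with 0 of 2 tested genes passing. Endothelial markers summed to 226.5 to 325 on treated and 239.3 to 279 on control arrays, with Cdh5 higher (0.83) and Tek lower (-0.78) of 3 tested. Cdh5 was above the array median only on treated arrays and Tek only on control arrays. Each was therefore tested only through the group where it was brighter. The calls of Cdh5, Tek and Alpl were each lost with no filter (adjusted p = 0.09, 0.0699 and 0.0925) and on leaving out several single arrays. The part of such cells in the members' changes was not tested.

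Among the death domain receptors, Tnfrsf21 (death receptor 6), known from lymphocytes and neurons, rose. Its brightest probe set, 1422740_at, read 229, 206 and 262 in treated cultures 1 to 3, against 63.1, 62.6 and 119 in control cultures 1 to 3. All treated arrays lay above all control arrays, and control 3 stood above the other controls. Tnfrsf21 averaged 232 ± 27.7 in treated cultures and 81.7 ± 32.7 in controls (SD, n = 3 each). Its log2 change was 1.46 ± 0.23 (SE; limma adjusted p = 0.000869). A dimmer probe set of Tnfrsf21 read 152.5, 147 and 125 in treated cultures and 40.6, 37.9 and 45.9 in controls, a log2 change of 1.56 (adjusted p = 0.000162). That probe set was above the array median only on the 3 treated arrays.

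Tnfrsf1a, the main receptor of soluble TNF and the one that recruits Tradd, did not pass the test. It read 1181, 969 and 1130 in treated cultures, against 1088, 1079 and 1271 in controls. The groups overlapped, with treated 2 the lowest and control 3 the highest of the 6. The log2 change was -0.07 ± 0.10 (SE; adjusted p = 0.646), with a 95% interval from -0.30 to 0.16. A change of 2-fold in either direction lies outside that interval.

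Because the drug acts through cytosines of CpG sites, the windows around the start sites of both death domain receptors are shown, from 250 bases before to 50 bases after the start, with each CG in capitals. They are RefSeq sequences of GRCm38.p6, written 5′ to 3′ on the strand of the gene. The window of Tnfrsf21 is chr17:43016305-43016604 on the + strand and that of Tnfrsf1a is chr6:125349473-125349772 on the + strand.
Tnfrsf21: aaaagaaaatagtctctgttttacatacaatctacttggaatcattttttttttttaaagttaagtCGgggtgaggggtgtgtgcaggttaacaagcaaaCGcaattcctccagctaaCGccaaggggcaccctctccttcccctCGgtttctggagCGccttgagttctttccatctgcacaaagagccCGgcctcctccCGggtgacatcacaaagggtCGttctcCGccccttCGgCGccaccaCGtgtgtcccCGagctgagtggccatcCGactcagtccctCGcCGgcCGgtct
Tnfrsf1a: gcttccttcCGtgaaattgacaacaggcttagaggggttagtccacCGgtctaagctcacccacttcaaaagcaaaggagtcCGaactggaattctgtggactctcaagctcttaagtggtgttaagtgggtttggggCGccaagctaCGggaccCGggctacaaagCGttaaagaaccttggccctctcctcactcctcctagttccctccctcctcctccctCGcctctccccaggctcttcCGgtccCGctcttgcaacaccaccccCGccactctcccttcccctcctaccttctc
The Tnfrsf21 window holds 17 CG, a number that 31.4% of the 32851 promoter windows of the mouse table reach, and the Tnfrsf1a window holds 11, a number that 41.4% of windows reach. The motif searched was CG, which reads the same on both strands, and the median window holds 7. The methylation of these windows was not analysed here.

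Of the receptors that bind TRAF proteins directly, Tnfrsf12a rose and the other 4 did not pass the test. Tnfrsf12a (Fn14) is a small receptor of the cytokine TWEAK that growth factors induce in fibroblasts. Its brightest probe set, 1418572_x_at, read 3242, 3081 and 3085 in treated cultures, against 876, 698 and 791 in controls. The treated arrays lay close together and far above all controls. Tnfrsf12a averaged 3136 ± 92.0 in treated cultures and 788 ± 88.8 in controls (SD, n = 3 each), a ratio of 3.98 and a log2 change of 1.98 ± 0.093 (SE; adjusted p = 4.92e-07). Its other probe set, 1418571_at, read 2581, 2332 and 2216 in treated cultures and 924.5, 732 and 800 in controls, a log2 change of 1.53 ± 0.10 (adjusted p = 4.42e-06). The name of the brighter probe set marks probes that may also match other transcripts. This was the largest change among the representing probe sets of the 10 members, and 1.57% of all tested genes changed more in the upward direction.

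The start window of Tnfrsf12a, the member with the largest change, is chr17:23677400-23677699 on the - strand of GRCm38.p6, again with each CG in capitals.
Tnfrsf12a: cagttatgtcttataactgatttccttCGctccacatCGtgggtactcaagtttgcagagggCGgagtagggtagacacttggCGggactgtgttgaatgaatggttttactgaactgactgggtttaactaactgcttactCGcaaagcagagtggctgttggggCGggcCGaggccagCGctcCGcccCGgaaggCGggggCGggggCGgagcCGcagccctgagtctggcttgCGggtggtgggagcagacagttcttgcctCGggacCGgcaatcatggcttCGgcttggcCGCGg
It holds 20 CG, a number that 26.5% of all windows reach. The window of Tnfrsf11a, which did not pass the test, holds 43, a number that 2.61% of windows reach and the highest count among the members.

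Tnfrsf1b, the receptor that responds best to membrane-bound TNF, read 87.0, 79.5 and 134 in treated cultures, against 85.8, 71.3 and 64.9 in controls. Treated 3 stood above the other arrays and the rest overlapped. The log2 change was 0.37 ± 0.23 (SE; adjusted p = 0.238), with a 95% interval from -0.14 to 0.87. Its other probe set read 90.3, 103.5 and 34.6 in treated cultures and 24.6, 54.5 and 25.6 in controls, and was too dim to be tested.

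Tnfrsf4 (OX40), a costimulatory receptor of T cells, read 199.7, 233 and 214 in treated cultures, against 218, 239.8 and 244 in controls. The groups overlapped. Its log2 change was -0.11 ± 0.12 (SE; adjusted p = 0.486), with an interval from -0.37 to 0.15.

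Tnfrsf9 (CD137), another costimulatory receptor of lymphocytes, varied widely between arrays. Its brightest probe set, 1460469_at, read 114, 116 and 51.9 in treated cultures, against 7.34, 75.4 and 29.3 in controls. Control 2 lay above treated 3, so the groups overlapped, and the probe set exceeded the array median on 3 of the 6 arrays. The log2 change was 1.36 ± 0.54 (SE; adjusted p = 0.0745), with an unadjusted 95% interval from 0.15 to 2.57. It passed when the deposited signals were left unscaled (adjusted p = 0.00583). Without control 1 the log2 change was 0.77 (adjusted p = 0.204), and without treated 3 it was 1.70 (adjusted p = 0.0525). The other 2 probe sets of Tnfrsf9 were too dim to be tested: 1421481_at read 35.7, 59.9 and 46.6 in treated cultures and 43.5, 59.1 and 41.9 in controls, and 1428034_a_at read 5.31, 8.37 and 42.0 in treated cultures and 2.16, 3.78 and 3.15 in controls. Of the 2 start windows listed for Tnfrsf9, the downstream one held 2 matches of the kappaB motif, counted on either strand, and the other held 0. These 2 matches overlap, shifted by 1 base within the same stretch, so they are not separate sites. Of all windows, 4.51% hold at least 1 match. None of the other 7 members with a window had a match.

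Tnfrsf11a (RANK), the receptor that drives osteoclast formation, read 87.9, 110.1 and 94.4 in treated cultures, against 45.6, 115 and 75.0 in controls. Control 2 was the highest of the 6 arrays and control 1 the lowest. The log2 change was 0.35 ± 0.28 (SE; adjusted p = 0.362), with an interval from -0.28 to 0.99. Its dimmer probe set had the opposite sign, -0.34 ± 0.26 (adjusted p = 0.351), so the probe sets gave no common direction.

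**Figure D2:**
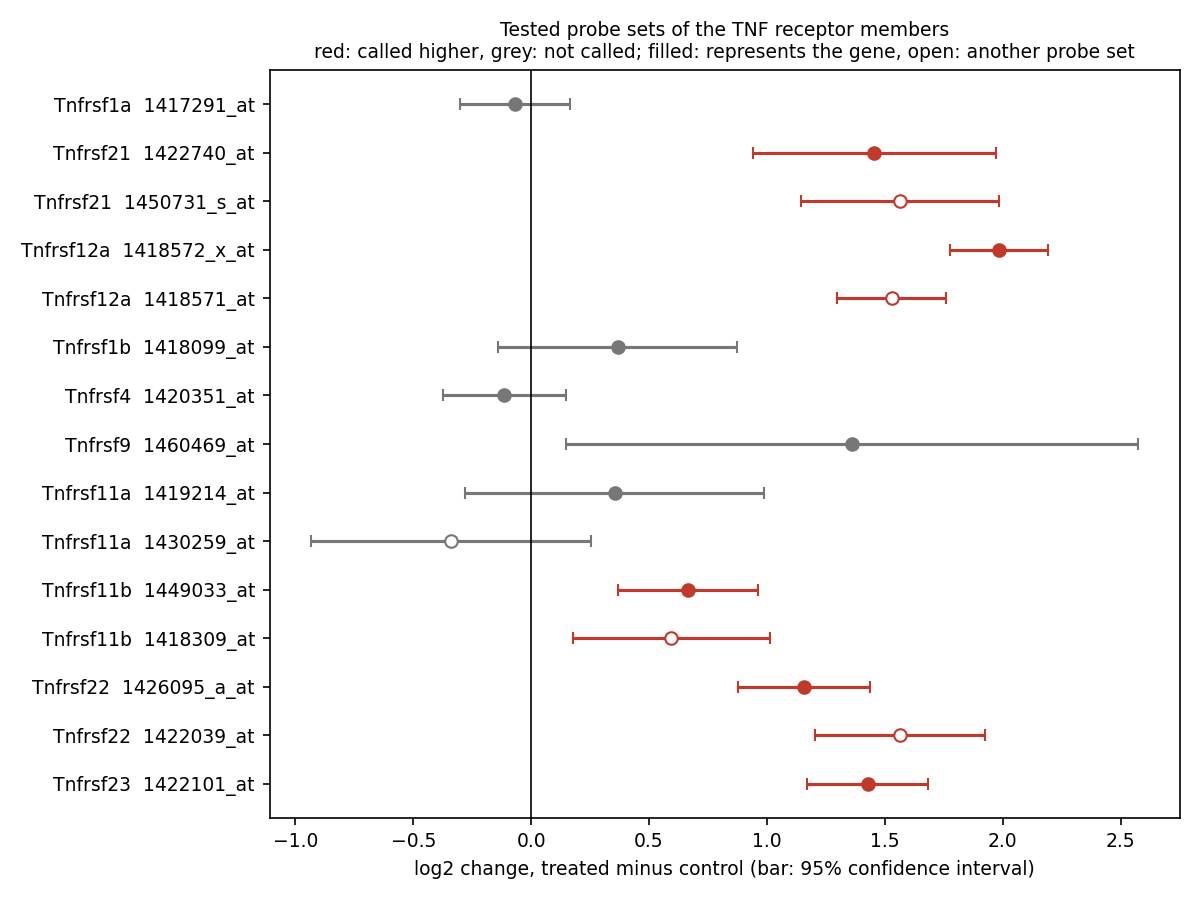
Log2 change, treated minus control (x axis), with its 95% confidence interval for the 15 tested probe sets of the members (rows), filled for the representing probe set of a gene and open for another one. All tested probe sets of Tnfrsf21, Tnfrsf12a, Tnfrsf11b, Tnfrsf22 and Tnfrsf23 were called higher, with the dimmer one of Tnfrsf11b losing its call when no filter was used, and the 2 probe sets of Tnfrsf11a lie on opposite sides of 0.

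All 3 decoy receptors rose. Tnfrsf11b (osteoprotegerin) is secreted and binds the ligand of Tnfrsf11a. Its brightest probe set, 1449033_at, read 500.5, 506 and 625 in treated cultures, against 312, 309 and 399 in controls. The groups did not overlap, and treated 3 and control 3 were the highest of their groups. Tnfrsf11b averaged 544 ± 70.1 in treated cultures and 340 ± 51.3 in controls (SD, n = 3 each), a log2 change of 0.66 ± 0.13 (SE; adjusted p = 0.00334). A dimmer probe set changed by 0.59 ± 0.19 (adjusted p = 0.0302), a call that was lost with no filter (adjusted p = 0.0665). With the deposited signals left unscaled, the change of Tnfrsf11b was 0.59 and no longer passed (adjusted p = 0.0821).

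Tnfrsf22 and Tnfrsf23 are closely related receptors of the mouse that bind TRAIL and lack a death domain. Tnfrsf23 read 431.5, 413 and 441 in treated cultures, against 154, 169.8 and 137.5 in controls. The groups were far apart compared with their spread. Tnfrsf23 averaged 428.5 ± 13.9 in treated cultures and 154 ± 16.2 in controls (SD, n = 3 each), and its log2 change was 1.43 ± 0.11 (SE; adjusted p = 1.27e-05). The brightest probe set of Tnfrsf22, 1426095_a_at, read 594, 496 and 469 in treated cultures, against 245, 235 and 201 in controls. Its log2 change was 1.16 ± 0.12 (SE; adjusted p = 8.17e-05), and that of a dimmer probe set, 1422039_at, was 1.56 ± 0.16 (adjusted p = 6.14e-05). The remaining probe set of Tnfrsf22 was too dim to be tested, at 69.7, 69.8 and 54.8 in treated cultures and 36.6, 5.61 and 25.8 in controls, without overlap. Whether probes of Tnfrsf22 and Tnfrsf23 also detect the other gene was not tested.

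The window of Tnfrsf23 is chr7:143685826-143686125 on the - strand of GRCm38.p6, shown to set a decoy receptor beside the others, with each CG in capitals.
Tnfrsf23: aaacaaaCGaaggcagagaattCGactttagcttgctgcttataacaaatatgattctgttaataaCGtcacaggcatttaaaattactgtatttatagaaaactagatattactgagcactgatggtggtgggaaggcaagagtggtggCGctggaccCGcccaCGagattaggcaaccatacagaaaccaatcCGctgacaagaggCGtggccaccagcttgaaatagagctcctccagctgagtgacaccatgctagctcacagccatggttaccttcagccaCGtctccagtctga
It holds 9 CG, a number that 45.8% of all windows reach.

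The genes around Tnfrsf22 and Tnfrsf23 on chromosome 7 were read because both lie beside the imprinted Cdkn1c region. In the gene order of GRCm38.p6, Tnfrsf22 and Tnfrsf23 are neighbours, with Tnfrsf26, Cars and Nap1l4 on one side and Osbpl5 on the other. Of 11 tested neighbours on the list, 1 rose, 2 fell and 8 did not pass, with a median log2 change of -0.18. Neither Cars (-0.26, adjusted p = 0.121) nor Osbpl5 (0.20, adjusted p = 0.468), the nearest measured genes, passed. Trpm5, an ion channel, narrowly missed the threshold (-0.77, adjusted p = 0.0503) with groups that did not overlap. Trpm5 was above the array median only on control arrays, so it was tested only through the group where it was brighter. Of the 11 alternatives in which it was tested, 5 called it lower. Their adjusted p-values ran from 0.0195 without the intensity trend to 0.0483 with the mean over probe sets. Without control 3, Cars was called lower (-0.39, adjusted p = 0.0134). Nap1l4, a histone chaperone, rose (log2 change 0.45 ± 0.090, SE; adjusted p = 0.00318), but not with the signals left unscaled (adjusted p = 0.288). Cdkn1c, an imprinted cell cycle inhibitor, fell to 705 ± 234 in treated cultures, against 2180 ± 338 in controls (SD, n = 3 each). Dhcr7, the last enzyme of cholesterol synthesis, fell by 1.11 on the log2 scale. The imprinted gene Phlda2 was too dim to be tested, at 41.4, 38.5 and 57.0 in treated cultures and 17.6, 7.66 and 5.50 in controls. With no filter on dim probe sets Phlda2 was called higher (log2 change 1.51, adjusted p = 0.0128).

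**Figure D3:**
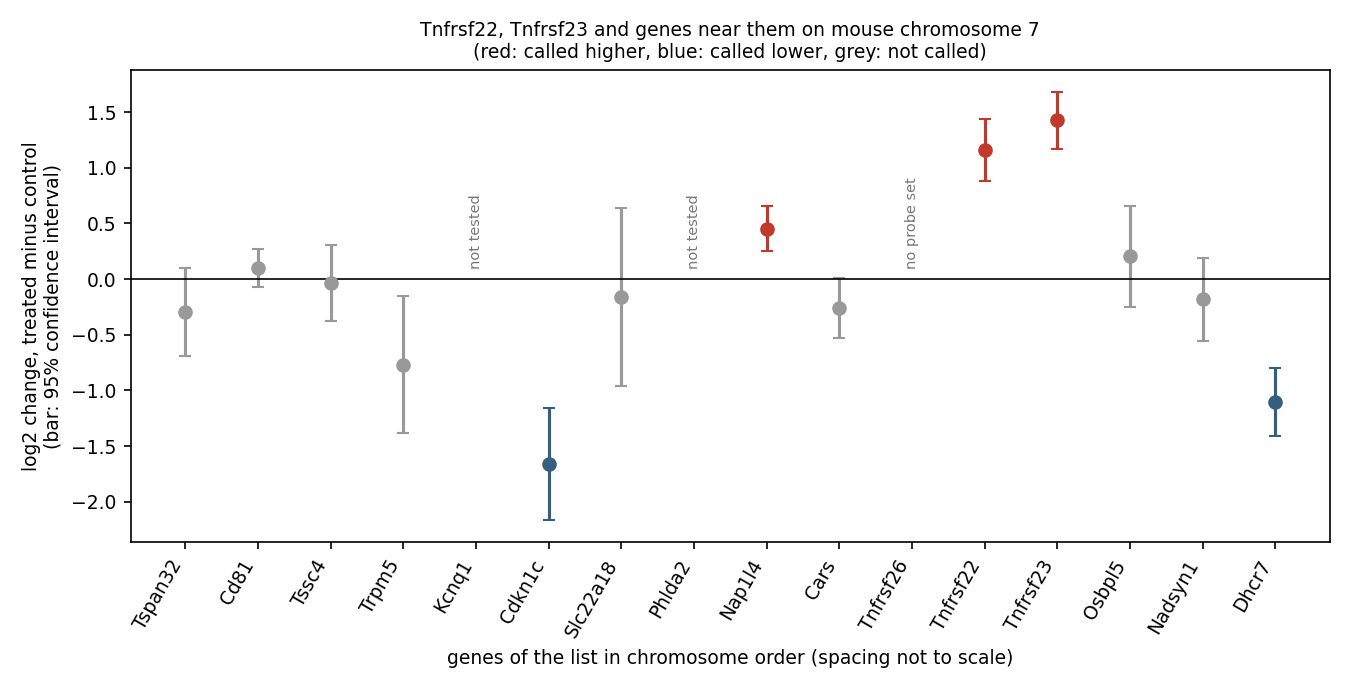
Log2 change, treated minus control (y axis), with its 95% confidence interval for Tnfrsf22, Tnfrsf23 and the genes listed around them, in chromosome order and without a distance scale. Tnfrsf22 and Tnfrsf23 stand next to each other at 1.16 and 1.43, while Cdkn1c (-1.66) and Dhcr7 (-1.11) were called lower.

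The rest of the receptor family held 17 genes on the array, of which 9 were tested. Of these, 4 rose, 0 fell and 5 did not pass, with a median log2 change of 0.45. Cd40, a receptor of antigen-presenting cells that fibroblasts can carry, had the largest change. It read 229, 184 and 340 in treated cultures, against 57.2, 75.4 and 27.1 in controls, a log2 change of 2.09 ± 0.32 (SE; adjusted p = 0.000696). Tnfrsf10b, the TRAIL receptor with a death domain, rose by 1.13 ± 0.20 (adjusted p = 0.0018) and was above the array median only on treated arrays. The ectodysplasin receptor Eda2r changed by 0.70 ± 0.17 (adjusted p = 0.00892) and the death receptor Fas by 0.56 ± 0.16 (adjusted p = 0.0184). Tnfrsf10b, Eda2r and Fas are known p53 targets. With the signals left unscaled 2 of the 4 passed, and Eda2r (adjusted p = 0.0669) and Fas (adjusted p = 0.217) did not. Fas also missed the threshold without treated 3 (adjusted p = 0.0669), control 2 (adjusted p = 0.0572) or control 3 (adjusted p = 0.0595). Without treated 3, 2 of the 8 receptors then tested passed, and Tnfrsf10b no longer met the condition for testing. Relt passed on leaving out control 2 (log2 change 1.04, adjusted p = 0.0378), against 0.45 (adjusted p = 0.49) over all arrays. Tnfrsf18, the chromosomal neighbour of Tnfrsf4, was too dim to be tested. It read 54.1, 66.9 and 43.6 in treated cultures and 8.72, 15.8 and 20.1 in controls, and with no filter it was called higher (log2 change 1.41, adjusted p = 0.0147).

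Few TNF ligands were bright enough to read. Of 14 on the array 5 were tested, and 1 rose, 0 fell and 4 did not pass. Tnfsf9, the ligand of Tnfrsf9, read 143, 132 and 162 in treated cultures, against 54.6, 73.0 and 74.1 in controls, a log2 change of 1.02 ± 0.18 (SE; adjusted p = 0.00163). Tnfsf4, the ligand of Tnfrsf4, changed by 0.86 ± 0.34 without passing (adjusted p = 0.075), and without control 2 it passed at 1.19 (adjusted p = 0.0176), as it did with the replicate number as a block (adjusted p = 0.022). Eda did not pass at its brightest probe set (-0.35, adjusted p = 0.425), while a dimmer one was called lower (-1.21, adjusted p = 0.0145). Tnf, Tnfsf11, the ligand of Tnfrsf11a and Tnfrsf11b, and Tnfsf10, which is TRAIL, did not meet the condition for testing. Tnf averaged 11.9 ± 4.03 in treated cultures and 19.6 ± 17.4 in controls (SD, n = 3 each). Tnfsf11 averaged 11.3 ± 4.90 in treated cultures and 18.3 ± 14.2 in controls. Tnfsf12, the ligand of Tnfrsf12a, had no probe set naming it alone.

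Adaptors and proximal signalling proteins went both ways. Of 21 tested, 7 rose, 5 fell and 9 did not pass, with a median log2 change of 0.03. Tnfaip3 (A20), an enzyme that restrains NF-kappaB signalling, read 386, 418 and 468.5 in treated cultures, against 58.6, 99.6 and 113 in controls, a log2 change of 2.16 ± 0.21 (SE; adjusted p = 4.06e-05). Cflar, which blocks the activation of Casp8 at death receptors, rose by 0.92 ± 0.14 (adjusted p = 0.000605). The necroptosis kinase Ripk3 changed by 0.73 (adjusted p = 0.000563) and the kinase scaffold Ikbkg by 0.91 (adjusted p = 0.00181). Not all probe sets of Ikbkg passed: 2 of its 6 tested ones changed by 0.42 (adjusted p = 0.307) and 0.36 (adjusted p = 0.0746). Tab1 and Tab2 bring the kinase Map3k7 to TRAF complexes. Map3k7 itself rose (0.67, adjusted p = 0.00465), but not with the signals left unscaled (adjusted p = 0.0664), and not all of its probe sets passed. Tab1 fell to 15.8, 20.6 and 15.9 in treated cultures, against 101, 103 and 77.2 in controls, and was above the array median only on control arrays. Tab2 fell by 0.49 on the log2 scale (adjusted p = 0.000841). The death domain adaptors Fadd (0.03, adjusted p = 0.878) and Tradd (0.17, adjusted p = 0.31), the initiator protease Casp8 (0.02, adjusted p = 0.878) and the adaptor Traf2 (0.01, adjusted p = 0.977) did not pass. With the signals left unscaled 4 rose and 3 fell. The number that fell was 3 without treated 1 or treated 2, and 2 without control 1 or control 2. On leaving out control 1 or control 2 only 20 were tested, as Tab1 no longer met the condition for testing.

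**Figure D4:**
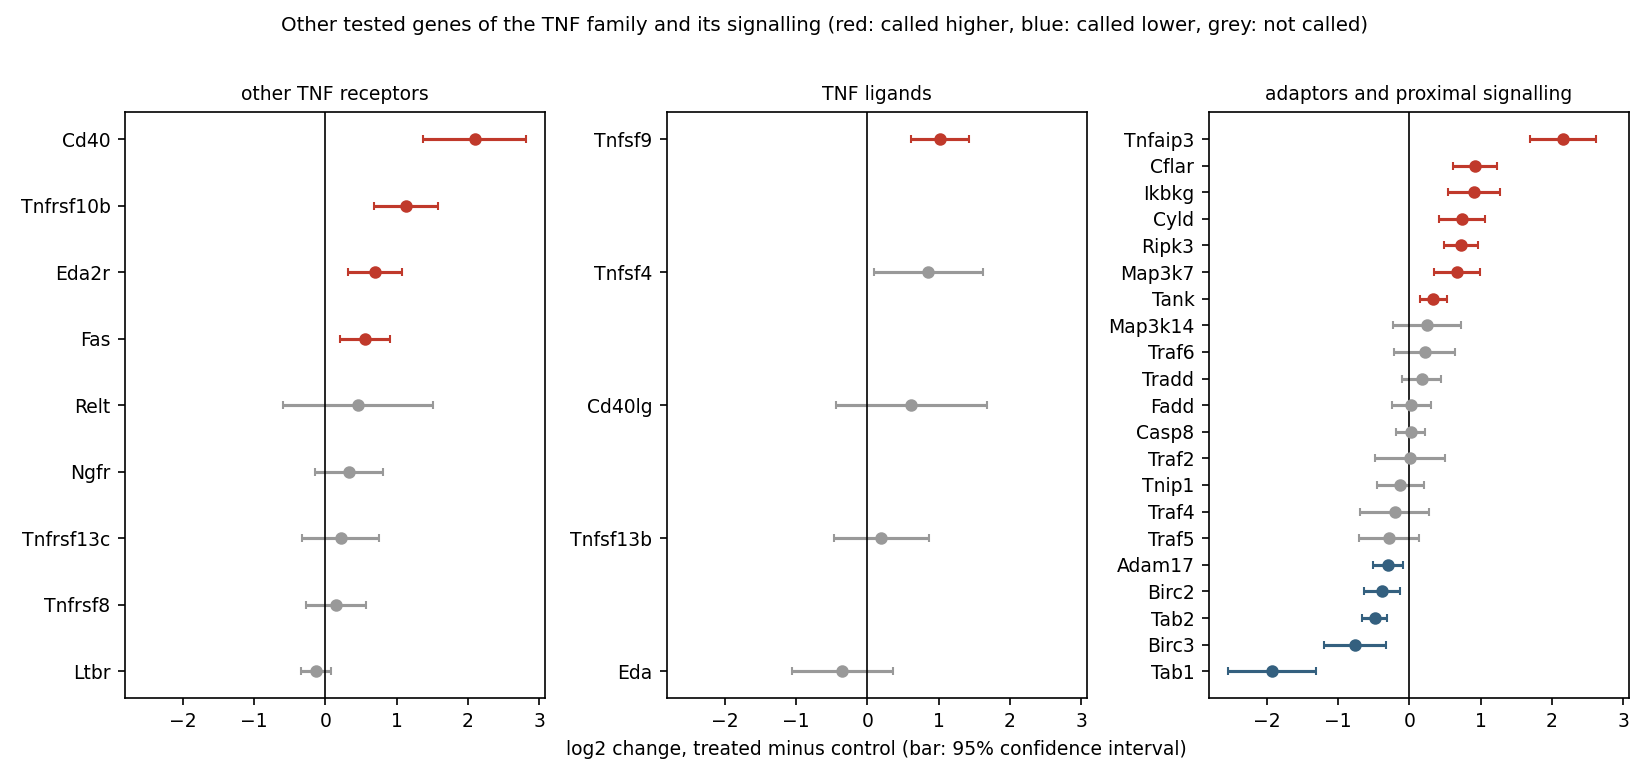
Log2 change, treated minus control (x axis), with its 95% confidence interval for the tested genes of 3 lists: 9 other TNF receptors, 5 TNF ligands and 21 adaptors and proximal signalling genes. Cd40 and Tnfaip3 lie furthest to the right, at 2.09 and 2.16, and Tab1 furthest to the left, at -1.93.

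The genes whose pattern over the 6 arrays was most like that of Tnfrsf12a were Mfge8 (Pearson r = 0.9993), Cck (0.99907) and Tnni3k (0.99906), as a description. The 6 arrays form 2 groups, and 1092 of the 12175 genes compared reached an r of at least 0.95 with Tnfrsf12a.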

How the data were processed

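Gene expression was measured on 6 arrays, 3 treated and 3 control. The authors deposited 1 signal intensity per probe set and array, made with MAS5 per the submitters' processing notes; the sources used here give neither its version and target intensity nor detection calls. The deposited intensities were linear, and their 2% trimmed means ranged from 149 to 224. Each array was scaled to a trimmed mean of 193, and log2(signal + 9.66) was taken, where 9.66 is 0.05 of that mean, so changes of dim genes are understated. The 64 manufacturer controls were left out. Probe sets above the array median on at least 3 of 6 arrays were tested, 23388 of 45037, so a gene dim in one group could pass through the other. The group comparison used limma 3.58.1 (lmFit, then eBayes with its trend option) in R 4.3.3, two-sided, with Benjamini-Hochberg adjustment over all tested probe sets. The procedure was tested on simulated data. Groups came from sample titles. Replicates are separate explants per the series' design text, and their number limits the precision. Gene names are those of the platform annotation. Start windows came from RefSeq (GRCm38.p6), for 8 of the 10 members. All 10 members were named whatever their values, and from each other list up to 6 genes, those with the smallest p. Cell type markers and further genes named beyond these were chosen after their values were seen. Members and lists were chosen with earlier results of these data known. Alternatives changed the scaling, pseudocount, filter, probe set rule, replicate block, variance trend and arrays used.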

Additional observations from a re-analysis of the deposited data

How the results depend on the processing

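The count of 5 members called higher and 0 called lower held under the alternative scalings, pseudocounts and filters, without the intensity trend, with the mean over the tested probe sets of a gene, and on leaving out any 1 of the 6 arrays (5 to 5 higher, 0 to 0 lower). With the deposited signals left unscaled the 5 were not the same genes: Tnfrsf9 passed (adjusted p = 0.00583) and Tnfrsf11b did not (adjusted p = 0.0821). Over all tested probe sets 9040 passed, 5019 with the signals left unscaled and 7234 to 7660 without 1 array. Treated and control cultures share replicate numbers, and the sources used here do not say whether equal numbers mean a shared explant. The correlations of same-numbered deviations from the group means were 0.186, 0.172 and 0.072. Those of differently numbered ones were -0.149 to -0.0218, so each array correlated best with its own number. Deviations from a group mean sum to 0, so positive same-numbered values force the others to be negative on balance. The negative values are therefore no separate contrast. These correlations do not settle the pairing, and the main fit did not take the numbers as pairs. With the replicate block 9541 probe sets passed, and 6 members were called higher and 0 lower, as Tnfrsf9 passed (adjusted p = 0.0461). In the other lists the block added Tnfsf4 (adjusted p = 0.022), Csf1r (adjusted p = 0.029) and Trpm5 (adjusted p = 0.0464). The changes of Tnfrsf12a over the 15 alternatives ranged from 1.76 to 2.06, of Tnfrsf21 from 1.20 to 1.73, of Tnfrsf22 from 1.06 to 1.36, that of Tnfrsf23 was at least 1.28, and each stayed called. Tnfrsf9 was too dim to be tested in 4 alternatives. Lists other than the members were recomputed under the same alternatives, which was decided after seeing the data. The depth of an array is not given by these signals, and with no detection calls background could not be told from low expression.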
